A study of Mus musculus with 20 samples.

Results

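The histone cluster genes encode the histones that package newly made DNA, and they were taken here as every gene whose symbol in the deposited gene table begins with Hist1h, Hist2h, Hist3h or Hist4h. Of 31055 genes, 67 carried such a symbol, and 63 of them had at least 10 unique molecular identifiers (UMIs, each standing for 1 captured transcript end) over both matrices. The 4 left out were Hist1h2ba, Hist2h2aa2, Hist1h2aa and Hist1h2bq, with 11 UMIs in all. Hist1h2ah, at 27 UMIs, was the sparsest gene kept, and Hist1h2aa, at 6, was the richest gene left out. The 63 genes were 6 of the linker histone H1, 16 of H2A, 16 of H2B, 12 of H3 and 13 of H4, and 51 of them belong to the large Hist1 cluster, which lies on mouse chromosome 13 (build GRCm38).

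The cells came from mouse dorsal skin epidermis in anagen, when the follicle builds its hair, and were captured with 10x Genomics 3' v3 chemistry. The Mutant group had 16 listed samples of genotype Nfatc1-CreER;R26R;mTmG;Fgf5-/- that began 3 days of tamoxifen on postnatal day 23 or 24. The Control group had 4 listed samples of genotype Nfatc1-CreER;R26R;mTmG that began 3 days of tamoxifen on postnatal day 21 or 22. Both groups therefore carried the tamoxifen-inducible Cre driven from Nfatc1, which is active in hair follicle stem cells among other cells, together with the recombination reporters, and the start of tamoxifen differed with genotype. Fgf5 encodes a secreted factor under which follicles are known to leave anagen.

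Each group was deposited as 1 matrix with no map from barcodes to listed samples, so each is 1 sample, nothing was tested between them and no p-value is given. After filtering there were 11002 Mutant cells (median 5984.5 UMIs) and 13790 Control cells (median 5591.5 UMIs), with a median of 4.92% mitochondrial UMIs in Mutant cells and 3.21% in Control cells. The libraries shared 59 cell barcodes. Fgf5 itself had 8.82 CPM in the Mutant matrix (863 UMIs) and 11.6 CPM in the Control matrix (1631 UMIs). Which part of the gene is deleted is not given in the sources used here, so these 3' end counts do not check the genotype. The matrices were compared by levels in CPM, the UMIs of a gene scaled by the total of the cells summed, with exact 95% intervals for Poisson counts. These intervals cover counting error only.

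Cells make most of their histones in S phase, when DNA is copied. Replication-dependent histone mRNAs are unusual in ending in a short conserved stem-loop, bound by the stem-loop binding protein, in place of a poly(A) tail. Some histone cluster genes can also give polyadenylated transcripts, which are known from differentiating and non-dividing cells. The libraries here were primed on poly(A), so the UMIs count polyadenylated or internally primed molecules and not the whole histone mRNA pool.

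The stem-loop could be read directly in the annotated transcripts (GENCODE vM21). The motif, made of GGNNCT, the loop TNTN and AGNNCC without a gap, was searched on the transcript strand from the end of the coding sequence on. It was found in 45 of the 67 genes (67.2%). It was found anywhere in the longest protein-coding transcript of 83 of 21834 other genes (0.38%). The following stretches show it in capitals for genes whose levels are described below, the first 5 seen outside dividing cells and the others not.
Hist1h1c (H1), chr13:23739507-23739532, plus strand: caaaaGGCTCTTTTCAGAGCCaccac
Hist3h2a (H2A), chr11:58955167-58955192, plus strand: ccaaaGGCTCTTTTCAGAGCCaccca
Hist1h2ac (H2A), chr13:23683472-23683497, minus strand: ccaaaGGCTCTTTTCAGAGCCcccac
Hist4h4 (H4), chr6:136803993-136804018, minus strand: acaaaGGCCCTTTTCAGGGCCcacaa
Hist2h4 (H4), chr3:96262934-96262959, minus strand: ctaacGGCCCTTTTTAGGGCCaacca
Hist1h1e (H1), chr13:23621777-23621802, minus strand: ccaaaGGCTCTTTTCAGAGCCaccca
Hist1h2ae (H2A), chr13:23570663-23570688, minus strand: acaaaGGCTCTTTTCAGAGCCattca
Hist1h2ab (H2A), chr13:23751567-23751592, plus strand: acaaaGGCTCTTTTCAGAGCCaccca
Hist1h2ap (H2A), chr13:21833026-21833049, minus strand: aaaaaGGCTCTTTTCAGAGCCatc
Hist1h4d (H4), chr13:23581945-23581970, plus strand: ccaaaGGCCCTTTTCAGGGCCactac
These 5 genes seen outside dividing cells thus carried the same element as the others shown. The annotated transcript ran on for 840 bases past the stem-loop in Hist1h1c, 1643 in Hist3h2a, 2010 in Hist1h2ac, 2445 in Hist4h4 and 1257 in Hist2h4. It ran on for 151 bases in Hist1h2ae and 11 in Hist1h2ab, but for 1153 in Hist1h1e and 770 in Hist1h4d.

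Hist1h2bc, an H2B gene, was annotated in another form. Its first exon (chr13:23684199-23684621, plus strand, 423 bases) holds the whole coding sequence of 378 bases, and a second exon (chr13:23692176-23692908, 733 bases) holds untranslated sequence only. The spliced transcript contains no match to the stem-loop motif. The sequence between the exons was not searched, so a shorter form ending soon after the first exon was not examined.

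Cells were divided by the proliferation genes Mki67 and Top2a into those with at least 1 UMI of either and those with none. There were 2790 Mutant cells with such UMIs (25.4%, median 9862 UMIs) and 3907 Control cells (28.3%, median 9642). The cells without them numbered 8212 in the Mutant library (median 4961.5 UMIs) and 9883 in the Control library (median 4446). The cells with division UMIs were thus deeper, and when each cell was thinned to 1500 UMIs the shares were 12.8% in the Mutant and 12.7% in the Control library. A cell with no UMI of the pair may still be dividing.

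A gene was called seen outside dividing cells if its CPM in cells without Mki67 and Top2a UMIs was at least 50% of its CPM in cells with them in both libraries, and concentrated in dividing cells if it was under 25% in both. By this rule 12 genes were seen outside dividing cells, 25 were concentrated in dividing cells, 25 were intermediate, and Hist1h2ah had too few UMIs to be placed. Hist1h4h was nearest the upper limit from inside, at 50.5% in the Mutant and 73.0% in the Control library, and Hist1h2br was nearest from outside, at 56.4% and 45.9%. At the lower limit Hist1h4f, at 10.6% in the Mutant and 24.5% in the Control library, was the last concentrated gene, and Hist2h3b, at 14.2% and 25.9%, was the next. These groups were chosen from the values, so they are described and not tested. Single ratios were read by a size rule that asked for a difference of 2-fold or more, a 95% interval lying wholly past 1.5-fold, and a level of 20 CPM or more on the higher side. In cells with over cells without division UMIs, 13 of 17 histone cluster genes above that level were higher in the Mutant library, against 4.64% of all genes, and 7 of 14 in the Control library, against 1.95%. None was lower in either library, against 9.91% of all genes in the Mutant and 8.71% in the Control library; since this contrast made the groups, nothing is read from these shares.

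**Figure D1:**
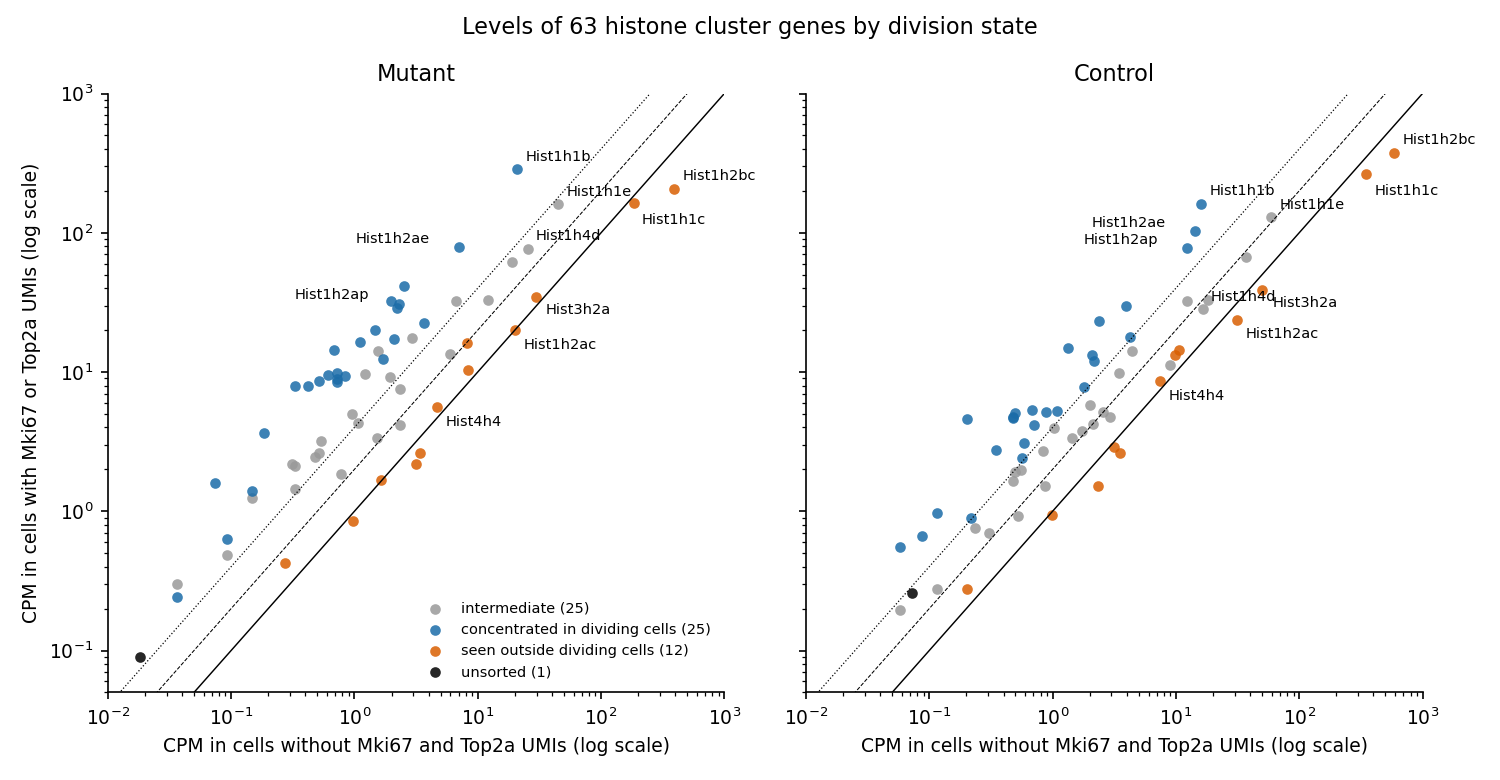
Level of each of the 63 genes in cells with Mki67 or Top2a UMIs (vertical, CPM, log scale) against cells without them (horizontal, CPM, log scale), for Mutant (left) and Control (right). The solid line marks equal levels, the dashed line 50% and the dotted line 25%; Hist1h2bc and Hist1h1c lie furthest to the right, at 392 and 184 CPM in Mutant and 585 and 349 CPM in Control cells without division UMIs, while Hist1h1b lies above the dotted line in both.

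The 12 genes seen outside dividing cells were 2 of H1 (Hist1h1c and the testis-type Hist1h1t), 2 of H2A (Hist3h2a and Hist1h2ac), 2 of H2B (Hist1h2bc and Hist2h2be), 3 of H3 (Hist1h3d, Hist2h3c1 and Hist2h3c2) and 3 of H4 (Hist1h4h, Hist2h4 and Hist4h4). Together they made up 77.9% of the histone cluster UMIs of Mutant cells without division UMIs and 81.0% of those of Control cells. In cells with division UMIs they made up 28.8% in the Mutant and 45.9% in the Control library. Most of this came from a pair of genes, Hist1h2bc and Hist1h1c: the other 10 gave 3121 of the 15397 UMIs of Mutant and 6614 of the 46092 UMIs of Control cells with division UMIs.

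Hist1h2bc had 207 CPM in cells with and 392 CPM in cells without division UMIs of the Mutant library, and 376 CPM with and 585 CPM without in the Control library. It was therefore higher in cells without division UMIs, by a log2 ratio (with over without) of -0.92 in the Mutant and -0.64 in the Control library, neither past the size rule. Hist1h1c, the linker histone H1.2, had 164 CPM with and 184 CPM without in the Mutant library, and 263 CPM with and 349 CPM without in the Control library, log2 ratios of -0.16 and -0.40. Hist3h2a, an H2A gene of the small cluster on chromosome 11, had 34.6 CPM with and 29.4 CPM without in the Mutant library, and 38.8 CPM with and 49.9 CPM without in the Control library. Hist1h2ac, the divergent neighbour of Hist1h2bc, had 19.9 CPM with and 20.2 CPM without in the Mutant library, and 23.8 CPM with and 31.3 CPM without in the Control library. The other 8 lay under 20 CPM in both states of both libraries. Among these Hist4h4 had 5.58 CPM with and 4.68 CPM without in the Mutant library, and 8.58 CPM with and 7.45 CPM without in the Control library. Hist1h1t, at 0.423 CPM with and 0.276 CPM without in the Mutant library and 0.275 CPM with and 0.204 CPM without in the Control library, was the sparsest.

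The concentrated genes were led by Hist1h1b, the linker histone H1.5, which had 285 CPM in cells with and 20.8 CPM in cells without division UMIs of the Mutant library, and 162 CPM with and 16.1 CPM without in the Control library. These are log2 ratios of 3.78 in the Mutant and 3.33 in the Control library. Hist1h2ae followed with 78.9 CPM with and 7.11 CPM without in the Mutant library, and 103 CPM with and 14.4 CPM without in the Control library. Over the 25 concentrated genes, levels summed to 679 CPM with and 53.0 CPM without in the Mutant library, and to 511 CPM with and 67.8 CPM without in the Control library. Beside them, of the 19 S phase list genes at 20 CPM or more, whose products act in DNA replication, 19 were higher in cells with division UMIs in the Mutant library (median log2 ratio 2.15) and 13 in the Control library (median 1.17).

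The highest gene of the intermediate group was Hist1h1e, the linker histone H1.4, with 161 CPM with and 44.7 CPM without division UMIs in the Mutant library, and 130 CPM with and 59.4 CPM without in the Control library. Of the 90-base words in its last 500 transcript bases, 99.0% also occur in other genes, and the annotated Hist1h2be and Gm11398 overlap it on the same strand, so its counts are uncertain. Hist1h4d had 76.7 CPM with and 25.4 CPM without in the Mutant library, and 28.2 CPM with and 16.5 CPM without in the Control library, and shares none of those words. Hist1h4i, a second H4 gene, had 61.3 CPM with and 18.8 CPM without in the Mutant library, and 67.2 CPM with and 37.3 CPM without in the Control library.

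The sorted groups differed in their annotated 3' ends. The rule did not use these directly. Reads past an annotated end would not be counted, so the sorting and the annotated ends are not independent. Counted from the last sense codon, so with the stop codon, the 12 genes seen outside dividing cells had a median of 1049.5 annotated bases, against 153 in the 25 intermediate and 69 in the 25 concentrated genes. At least 300 such bases were annotated in 10 of the 12, in 9 of the 25 intermediate and in 2 of the 25 concentrated genes. The polyadenylation signal AATAAA, searched on the transcript strand in the last 50 bases, was found in 7 of the 12 genes seen outside dividing cells, in 5 of the intermediate and in 1 of the concentrated genes, and in 59.3% of the longest protein-coding transcripts of other genes. The stem-loop motif itself was found in 10 of the 12, 20 of the 25 intermediate and 14 of the 25 concentrated genes. In 10 of the concentrated genes, Hist1h1b among them, the annotation stops within 5 bases of the coding sequence, so their true 3' ends were not seen. Without such short models the motif was found in 14 of 15 concentrated genes. Near-identical copies were also uneven: 9 of the 12 genes shared no 90-base word of their last 500 bases with another gene, against 2 of the 25 concentrated genes, and 15 of the 25 shared more than 50% of them. Reads of those 15 could be lost or moved between copies, and their part in the sorting was not tested.

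**Figure D2:**
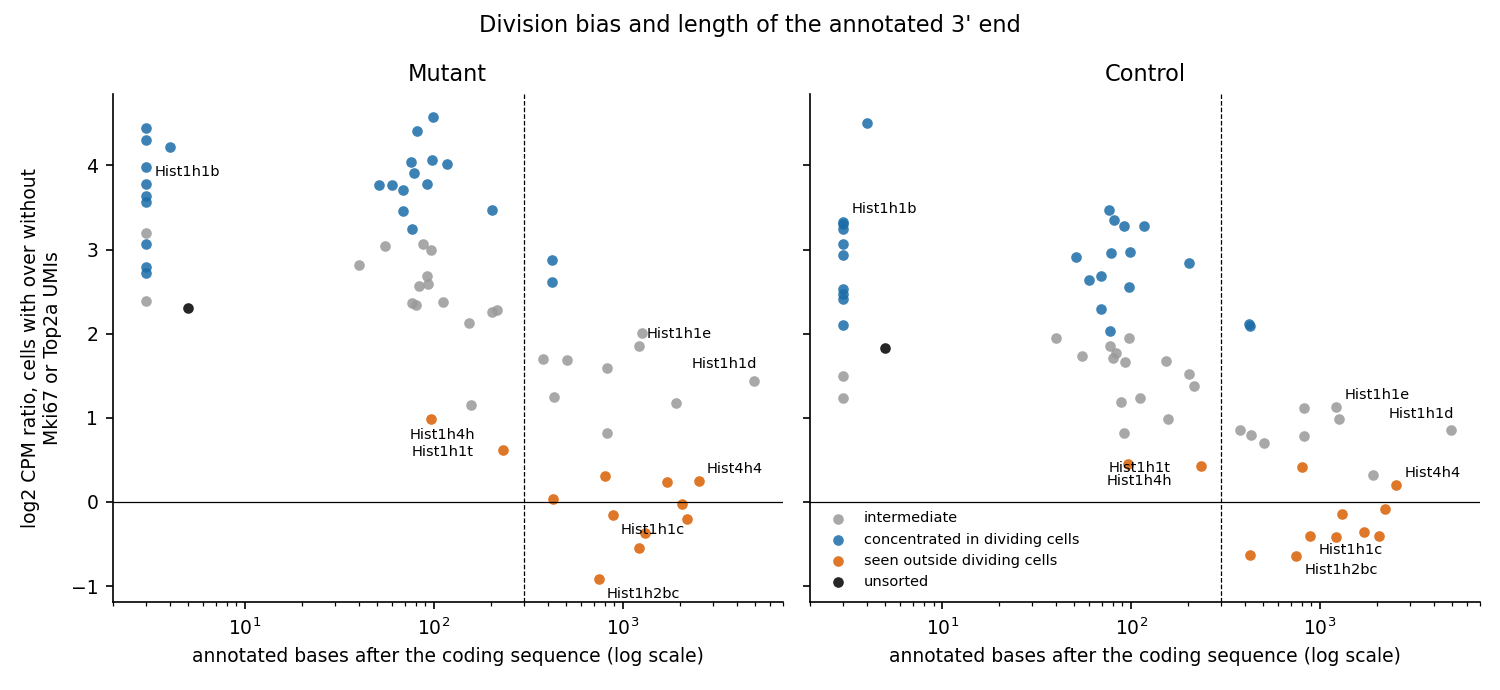
Log2 CPM ratio of cells with over cells without Mki67 or Top2a UMIs (vertical) against annotated bases after the last sense codon (horizontal, log scale) for the 63 genes in Mutant (left) and Control (right). The dashed line marks 300 bases: 10 of the 12 genes seen outside dividing cells lie to its right and 23 of the 25 concentrated genes to its left.

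Promoters were compared for the 60 of the 67 genes found in the RefSeq promoter table (build GRCm38.p6), over the 250 bases before the transcription start and on both strands. The CCAAT box (CCAAT) was found in 49 of the 60 (81.7%), against 34.5% of the 27025 promoters in the table, and TATAAA in 46.7%, against 13%. The H1 box AAACACA, known from H1 promoters, was found in 4 of the 5 H1 genes matched, against 6.22% of all promoters. The octamer ATTTGCAT, known as the Oct-1 site of H2B promoters, was found in 7 of 17 H2A genes and 6 of 16 H2B genes, against 1.61%. Of the 12 H4 genes, 3 held the CCAAT box. Shown with these motifs in capitals, on either strand, are the promoters of an H1 gene concentrated in dividing cells, of Hist1h1c, the more abundant H1 gene seen outside them, of Hist1h2ac, whose promoter faces Hist1h2bc, and of Hist1h4d, the H4 gene with the highest Mutant over Control ratio among those at 20 CPM or more in cells with division UMIs.
Hist1h1b, chr13:21780626-21780875, minus strand: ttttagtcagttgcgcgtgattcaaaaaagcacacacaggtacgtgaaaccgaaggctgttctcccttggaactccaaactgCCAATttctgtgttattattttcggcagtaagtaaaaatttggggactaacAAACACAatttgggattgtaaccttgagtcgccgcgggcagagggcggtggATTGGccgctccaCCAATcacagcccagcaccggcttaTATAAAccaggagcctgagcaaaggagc
Hist1h1c, chr13:23738557-23738806, plus strand: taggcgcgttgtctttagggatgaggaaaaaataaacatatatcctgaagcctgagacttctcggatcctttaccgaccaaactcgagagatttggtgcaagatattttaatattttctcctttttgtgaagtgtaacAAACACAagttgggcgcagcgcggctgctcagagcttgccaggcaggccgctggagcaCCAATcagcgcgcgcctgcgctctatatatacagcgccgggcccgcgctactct
Hist1h2ac, chr13:23683960-23684209, minus strand: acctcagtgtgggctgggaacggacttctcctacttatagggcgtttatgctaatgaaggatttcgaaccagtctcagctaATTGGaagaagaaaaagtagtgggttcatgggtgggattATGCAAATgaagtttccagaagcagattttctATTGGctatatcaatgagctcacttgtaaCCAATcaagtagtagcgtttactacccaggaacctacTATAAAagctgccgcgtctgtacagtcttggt
Hist1h4d, chr13:23581318-23581567, plus strand: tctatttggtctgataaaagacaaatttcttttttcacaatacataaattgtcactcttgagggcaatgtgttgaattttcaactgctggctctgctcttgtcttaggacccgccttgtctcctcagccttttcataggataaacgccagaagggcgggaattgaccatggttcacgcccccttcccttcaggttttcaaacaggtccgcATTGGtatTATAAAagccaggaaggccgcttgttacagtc
Hist1h1b, concentrated in dividing cells, and Hist1h1c, seen outside them, both held the H1 box and a CCAAT box. TATAAA was found in the window of Hist1h1b and not in that of Hist1h1c. These matches are letters found in a window and say nothing of a factor bound there.

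Cells were next sorted into classes from clusters formed without the histone cluster, cell cycle and X- or Y-linked genes. A cluster took a name only from its markers. There were 12 classes of 200 cells or more per library, and 9 of them had 30 cells or more in every division state. Cluster 0 stayed unnamed (its leading genes were Hist1h1b, Pclaf, Cldn10, Stmn1 and Cux1) and was mostly dividing, with Mki67 or Top2a UMIs in 71.3% of its 1752 Mutant cells and 69.2% of its 1108 Control cells. Clusters 4 and 18 were also unnamed, the first led by Pthlh and Krt6a and the second by haemoglobin genes. The basal keratinocyte-like class lay mostly in cluster 3 for the Mutant (1297 cells) and cluster 7 for the Control library (1034 cells), the melanocyte-like class mostly in cluster 5 (1234) and cluster 8 (1060), and the T or NK cell-like class mostly in cluster 9 (1026) and cluster 2 (1447). In these classes a Mutant over Control ratio therefore compares mostly different clusters. Cluster 3 was led by Tslp, Epgn and Ccl20, which encode cytokines and a growth factor of stressed or inflamed epidermis, and cluster 7 by Ndufa4l2, Clca3a2 and Fcgbp.

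The same contrast was then read inside the classes. It made the groups over these same cells, so the direction of their sums is described and nothing is read from it. The 25 concentrated genes together were higher in cells with than without division UMIs in 9 of 9 classes of each library, by log2 ratios of 1.98 to 3.25 in the Mutant and 2.11 to 4.05 in the Control library. The 12 genes seen outside dividing cells ranged from -1.0 to 0.32 in the Mutant and from -0.88 to 0.18 in the Control library, and without Hist1h2bc and Hist1h1c from -0.43 to 0.85 and from -0.69 to 0.74. Hist1h2bc was lower in cells with division UMIs in 7 of 9 classes of each library. In hair matrix-like cells, which feed the growing hair shaft, it had 199 CPM with and 379 CPM without division UMIs in the Mutant library, and 315 CPM with and 586 CPM without in the Control library. In melanocyte-like cells it had 395 CPM with and 322 CPM without in the Mutant library, and 473 CPM with and 454 CPM without in the Control library.

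In cluster 0 the levels could be set against 2 cell cycle lists, neither of which holds a histone cluster gene. Each cell was thinned to 1500 UMIs and grouped by at least 2 UMIs of the S phase list, of the G2 and M phase list, of both or of neither; these groups were made after the data were seen. The 25 concentrated genes had 390 CPM in Mutant and 328 CPM in Control cells with neither list, 889 and 805 CPM with the S list only, 1376 and 1532 CPM with both, and 1023 and 814 CPM with the G2 and M list only. Their lowest levels were thus in cells with neither list and their highest in cells with both, in each library. Hist1h1b had 209 CPM in Mutant and 126 CPM in Control cells with neither list and 572 and 491 CPM with both. The 12 genes seen outside dividing cells had 429 CPM in Mutant and 745 CPM in Control cells with neither list, 378 and 434 CPM with the S list only, 362 and 498 CPM with both, and 345 and 629 CPM with the G2 and M list only. The 4 Mutant intervals overlapped. The Control level was highest with neither list, with an interval that overlapped only that of the G2 and M list (650 to 851 CPM against 526 to 745 CPM).

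**Figure D3:**
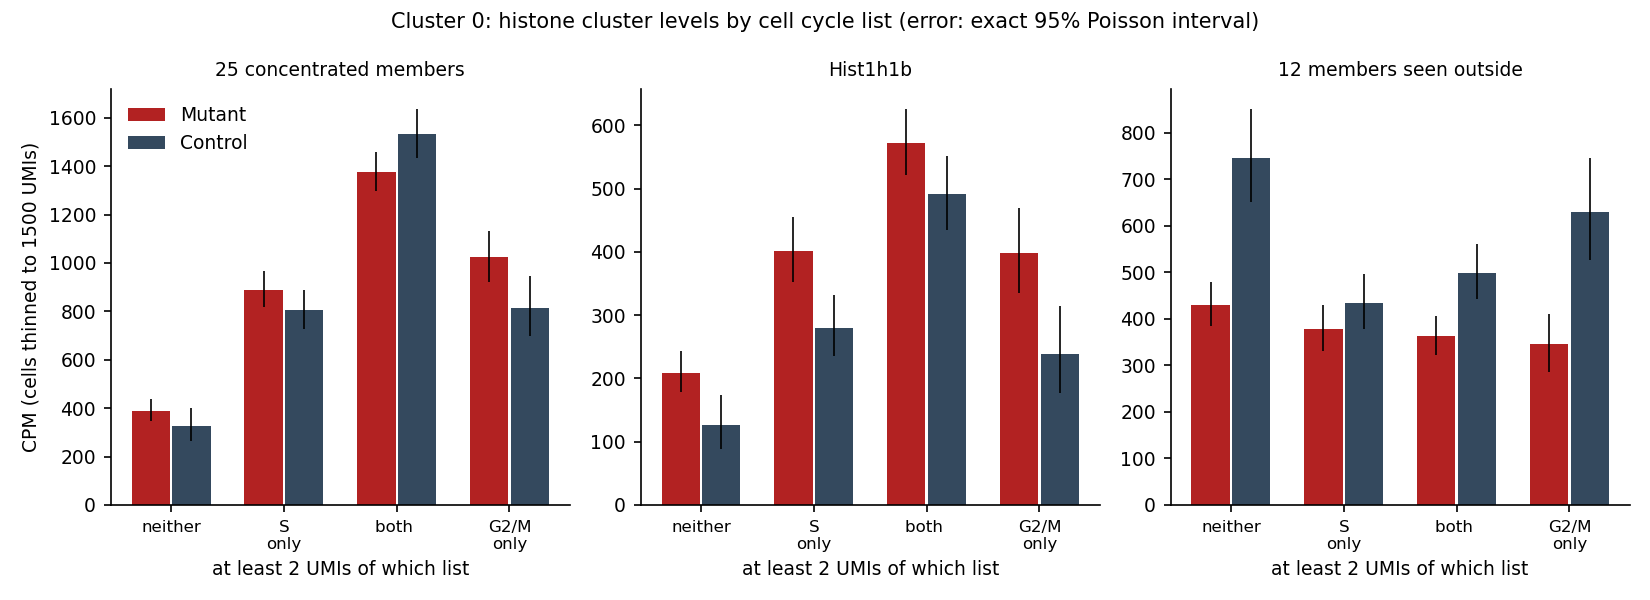
CPM of the 25 concentrated genes, of Hist1h1b and of the 12 genes seen outside dividing cells in cluster 0, by cell cycle list, with Mutant left of Control in each pair; error bars are exact 95% Poisson intervals. The concentrated genes peak in cells with both lists, at 1376 CPM in Mutant and 1532 CPM in Control cells, and the genes seen outside dividing cells do not.

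Among cells without division UMIs, the 12 genes were highest in T or NK cell-like cells, at 3782 CPM (95% interval 3697 to 3867) in the Mutant and 3559 CPM (3509 to 3610) in the Control library. Outer root sheath-like cells, which line the follicle, were next with 1305 CPM in the Mutant and 1344 CPM in the Control library. Fibroblast-like cells were lowest, with 180 CPM in the Mutant and 311 CPM in the Control library. Hist1h2bc alone had 3066 CPM in Mutant and 2283 CPM in Control T or NK cell-like cells, against 118 and 162 CPM in fibroblast-like cells. After thinning to 1500 UMIs, 63.6% of Mutant and 59.2% of Control T or NK cell-like cells without division UMIs had a Hist1h2bc UMI. Free RNA in the droplets would also give such UMIs, and the lowest shares among the 12 classes were 10.4% in Mutant basal keratinocyte-like cells and 18.4% in Control fibroblast-like cells. Before thinning the shares were 67.0% in Mutant and 63.1% in Control T or NK cell-like cells at medians of 1921 and 2227 UMIs, against 24.9% in Mutant basal keratinocyte-like cells at 4768 UMIs and 37.5% in Control fibroblast-like cells at 3881.5 UMIs. Division UMIs were counted anew after thinning, and cells under 1500 UMIs were left out. The shares before and after thinning are therefore not of the same cells. Hist1h1b, by contrast, had a UMI in 1.72% of thinned Mutant and 2.88% of thinned Control T or NK cell-like cells without division UMIs.

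**Figure D4:**
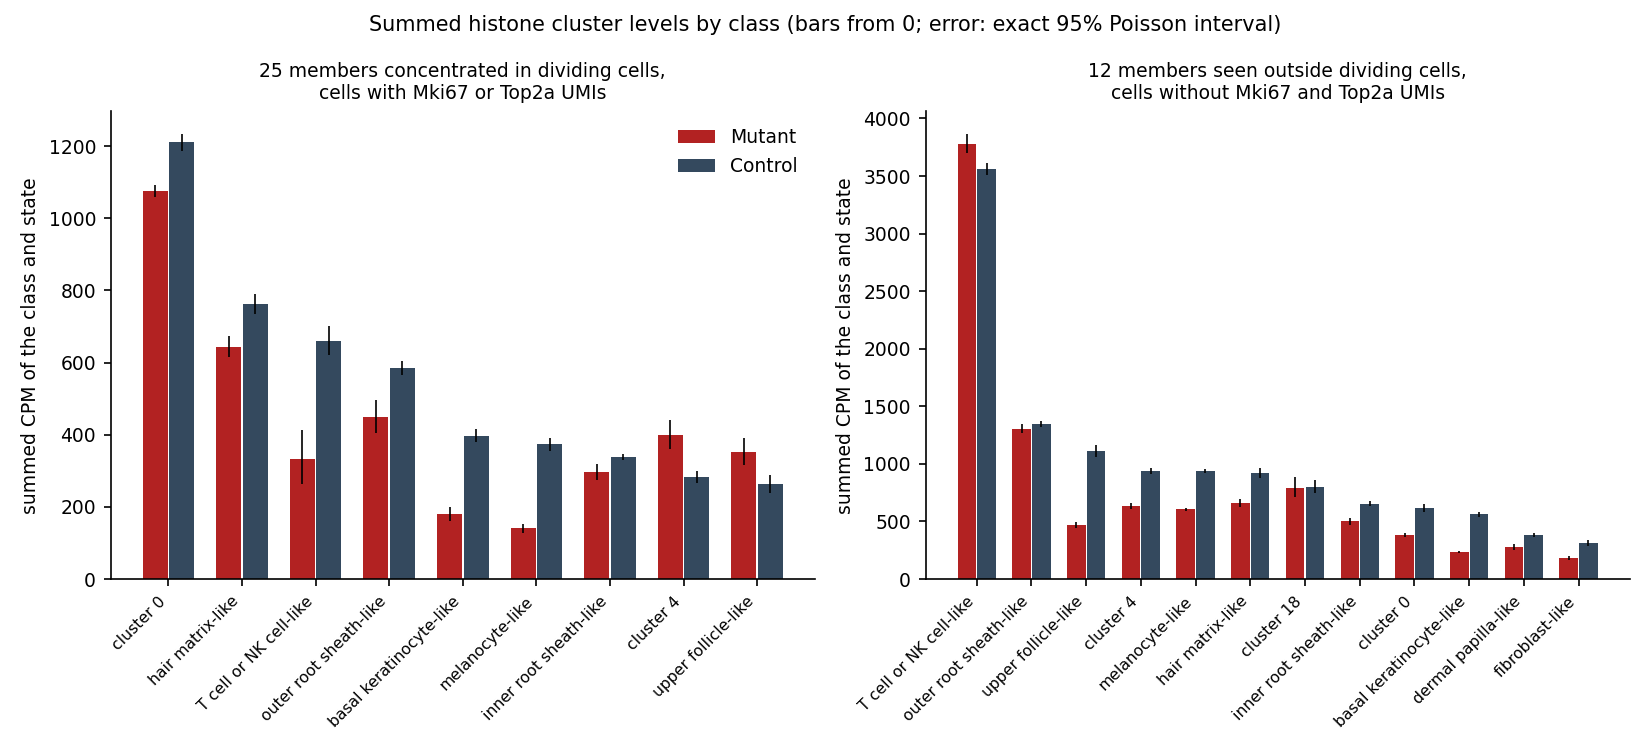
Summed CPM by class, Mutant left of Control, for the 25 concentrated genes in cells with Mki67 or Top2a UMIs (left panel) and the 12 genes seen outside dividing cells in cells without them (right panel); error bars are exact 95% Poisson intervals. Cluster 0 leads the left panel, at 1075 CPM in Mutant and 1210 CPM in Control, and T or NK cell-like cells lead the right panel.

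Between the libraries, with all cells with division UMIs summed, the histone cluster genes had 1614 CPM in Mutant and 1627 CPM in Control cells (log2 ratio Mutant over Control -0.01, 95% interval -0.03 to 0.00). Of these, the 25 concentrated genes had 679 CPM in Mutant and 511 CPM in Control cells (log2 ratio 0.41), while the 12 genes seen outside dividing cells had 465 CPM in Mutant and 746 CPM in Control cells (log2 ratio -0.68). In cells without division UMIs the 63 genes summed to 841 CPM in Mutant and 1300 CPM in Control cells (log2 ratio -0.63), the concentrated genes to 53.0 and 67.8 CPM (log2 ratio -0.36) and the genes seen outside dividing cells to 655 and 1053 CPM (log2 ratio -0.68). None of these sums differed 2-fold.

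The classes did not have the same shares in the libraries, and this bears on the sums directly. Cluster 0, where the concentrated genes had 1075 CPM in Mutant and 1210 CPM in Control cells, gave 1250 of the 2790 Mutant cells and 767 of the 3907 Control cells with division UMIs. The 11 classes of at least 30 such cells in each library were then weighted alike in both libraries. Each class was weighted by its cells of both libraries together, so cluster 0 weighed most. With these weights the concentrated genes had 656 CPM in Mutant and 749 CPM in Control cells, a log2 ratio of -0.19. Their direction thus turned, and the ratio depends on the weights chosen. Within the 9 classes their log2 ratio was negative in 7, from -0.17 in cluster 0 to -1.14 in basal keratinocyte-like cells (180 CPM in Mutant, 397 CPM in Control) and -1.41 in melanocyte-like cells (140 CPM in Mutant, 373 CPM in Control). The basal keratinocyte-like and melanocyte-like ratios compare mostly different clusters. The ratio was positive in upper follicle keratinocyte-like cells, at 0.42 (352 CPM in Mutant, 262 CPM in Control), and in cluster 4, at 0.50 (399 CPM in Mutant, 283 CPM in Control). The other 2 of the 11 weighted classes, each under 200 cells in 1 library, were positive as well. Cluster 17, unnamed and led by Slc39a10, Flrt2 and Fgf5, had 1233 CPM in Mutant and 873 CPM in Control cells (0.50, 0.37 to 0.63). Hair medulla-like cells had 870 CPM in Mutant and 308 CPM in Control cells (1.5, 1.26 to 1.74), the highest ratio of the 11. The genes seen outside dividing cells kept a negative log2 ratio with classes weighted alike in both libraries, -0.38 in cells with division UMIs (587 CPM in Mutant, 765 CPM in Control) and -0.17 in cells without. All 63 genes together came to -0.19 with these weights in cells with division UMIs (1723 CPM in Mutant, 1970 CPM in Control). Their ratio there was -0.15 within cluster 0, but 0.45 in cluster 17 and 0.88 in hair medulla-like cells.

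Of the 17 histone cluster genes at 20 CPM or more in cells with division UMIs, 3 were higher by the size rule in the Mutant library, against 2.14% of 5930 genes, and 1 was lower, against 3.17%. Of 8 genes in cells without division UMIs, none passed in either direction, against 2.94% higher and 4.03% lower of 6227 genes. The median log2 ratio of the 17 genes was 0.01, beside 0.05 over all genes, and that of the 8 genes -0.61, beside -0.06. Over all 63 genes in cells with division UMIs, 44 had a positive and 19 a negative ratio (median 0.46), and in cells without, 18 a positive and 45 a negative one (median -0.35). These counts include genes under 20 CPM and sums over classes of unlike shares. The same counts over all genes are not given here, so nothing is read from them.

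The linker histones bind DNA between nucleosomes. In cells with division UMIs Hist1h1b had 285 CPM in Mutant and 162 CPM in Control cells (log2 ratio 0.81), which did not pass the size rule and came to 0.11 with classes weighted alike; it was below 0 in 5 of 9 classes. Within cluster 0 it had 473 CPM in Mutant and 427 CPM in Control cells (log2 ratio 0.15), and in melanocyte-like cells it fell to 51.9 CPM in Mutant, against 109 CPM in Control cells (log2 ratio -1.07; -1.0 with TMM and -0.99 with DESeq2 factors). The melanocyte-like value compares mostly different clusters of the libraries. Hist1h1c had 164 CPM in Mutant and 263 CPM in Control cells (log2 ratio -0.69), and 184 and 349 CPM in cells without division UMIs (log2 ratio -0.93).

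Inside classes, Hist1h1c passed the size rule as lower in Mutant cells in 3 of 9 classes with and 4 of 12 classes without division UMIs, and as higher in none. In upper follicle keratinocyte-like cells without division UMIs it fell to 166 CPM in Mutant, against 540 CPM in Control cells (log2 ratio -1.70, 95% interval -1.88 to -1.53). In basal keratinocyte-like cells it fell to 67.9 CPM in Mutant, against 267 CPM in Control cells (-1.97, -2.13 to -1.82), in T or NK cell-like cells to 455 CPM, against 974 CPM (-1.10, -1.20 to -1.0), and in fibroblast-like cells to 28.5 CPM, against 89.0 CPM (-1.64, -2.08 to -1.21). In outer root sheath-like cells it had 365 CPM in Mutant and 374 CPM in Control cells (-0.03, -0.13 to 0.06). TMM and DESeq2 size factors moved the basal keratinocyte-like ratio to -1.68 and -1.59, since they shift every ratio of those cells by 0.30 and 0.39; with TMM or DESeq2 factors the T or NK cell-like ratio came to -0.96 and -0.94, no longer 2-fold. The basal keratinocyte-like and T or NK cell-like values of Hist1h1c compare mostly different clusters of the libraries. Hist1h1a, the S phase linker histone H1.1, had 2.53 CPM in Mutant and 21.6 CPM in Control melanocyte-like cells with division UMIs (-3.10, -4.27 to -2.11). That value also compares mostly different clusters. Hist1h1a passed the size rule as lower in 4 of the 7 classes where it reached 20 CPM.

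Among the H2A genes, whose proteins pair with H2B in the nucleosome, Hist1h2ap had 31.0 CPM in Mutant and 77.2 CPM in Control cells with division UMIs (log2 ratio -1.32, -1.42 to -1.22). It was lower by the size rule in 8 of 9 classes, among them cluster 0 (46.3 CPM in Mutant, 170 CPM in Control, log2 ratio -1.88) and basal keratinocyte-like cells (7.86 CPM in Mutant, 55.3 CPM in Control, -2.81), and had -1.06 in the other, cluster 4. Hist1h2ab had 41.2 CPM in Mutant and 14.8 CPM in Control cells (log2 ratio 1.48, 1.36 to 1.60), 0.85 with classes weighted alike, and passed as higher in 3 of 6 classes. Both are hard to tell from other copies, since 92.4% of the 90-base words of Hist1h2ap and 53.6% of those of Hist1h2ab occur in other genes. Summed over the 16 H2A genes the level was 268 CPM in Mutant and 287 CPM in Control cells (log2 ratio -0.10), and in cluster 0 383 CPM in Mutant and 571 CPM in Control cells (-0.57). Hist1h2ae, with 47.7% of its words shared, fell in cluster 0 to 119 CPM in Mutant, against 241 CPM in Control cells (-1.02; -0.95 with TMM and -0.96 with DESeq2 factors), and in melanocyte-like cells to 21.9 CPM, against 99.8 CPM (-2.19). Of the H2A genes seen outside dividing cells, Hist3h2a shares no words. Hist3h2a fell in basal keratinocyte-like cells without division UMIs to 4.18 CPM in Mutant, against 23.5 CPM in Control cells (-2.49, -3.14 to -1.89), and had 70.4 CPM in Mutant and 48.2 CPM in Control outer root sheath-like cells (0.55). The basal keratinocyte-like and melanocyte-like values of these H2A genes compare mostly different clusters of the libraries.

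Among the H2B genes, Hist1h2bc had 207 CPM in Mutant and 376 CPM in Control cells with division UMIs (log2 ratio -0.86) and 392 and 585 CPM without (-0.58). With classes weighted alike the second ratio came to 0.12 (811 CPM in Mutant, 747 CPM in Control), while class by class it was below 0 in 10 of 12 classes. It was lower by the size rule in 1 of 12 classes without division UMIs, cluster 0, with 143 CPM in Mutant and 289 CPM in Control cells (-1.01, -1.18 to -0.84; -0.90 with TMM and -0.91 with DESeq2 factors), and had a positive ratio in T or NK cell-like cells (0.43, 3066 CPM in Mutant and 2283 CPM in Control) and cluster 18 (0.50). The T or NK cell-like value compares different clusters: inside cluster 9 (944 Mutant and 55 Control cells without division UMIs) the 12 genes seen outside dividing cells had 3986 CPM in Mutant and 5088 CPM in Control cells (-0.35, -0.48 to -0.22). Inside cluster 2 (54 Mutant and 1299 Control cells) they had 1704 CPM in Mutant and 4646 CPM in Control cells (-1.45, -1.66 to -1.24). Hist1h2bj had 28.9 CPM in Mutant and 13.3 CPM in Control cells with division UMIs (1.12, 0.98 to 1.25), 0.53 with classes weighted alike.

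Among the H3 and H4 genes, which form the core tetramer of the nucleosome, Hist1h4d had a positive ratio in each class where it reached 20 CPM. It had 76.7 CPM in Mutant and 28.2 CPM in Control cells with division UMIs (log2 ratio 1.44, 1.36 to 1.53) and 25.4 CPM in Mutant and 16.5 CPM in Control cells without (0.63). With classes weighted alike the ratios were 1.15 and 0.93. In cells with division UMIs its ratio was positive in 9 of 9 classes, from 0.47 to 1.51, and past the size rule in 5. These were cluster 0 (109 CPM in Mutant, 46.3 CPM in Control), T or NK cell-like (111 and 39.2 CPM), hair matrix-like (55.6 and 24.6 CPM), inner root sheath-like (35.6 and 16 CPM) and upper follicle keratinocyte-like cells (60.9 and 21.3 CPM). The T or NK cell-like value compares mostly different clusters. The inner root sheath-like ratio came to 0.99 with TMM and 0.98 with DESeq2 factors, just short of 2-fold. In cells without division UMIs it was positive in 7 of 7 classes at 20 CPM or more and passed in outer root sheath-like cells, at 54.5 CPM in Mutant and 22.1 CPM in Control cells (1.30, 0.99 to 1.61). Hist1h4i, in contrast, passed as lower in 2 of 9 classes with and 3 of 9 classes without division UMIs. In outer root sheath-like cells with division UMIs Hist1h4i had 42.1 CPM in Mutant and 105 CPM in Control cells (-1.32). In T or NK cell-like cells without division UMIs, Hist1h3d had 67.4 CPM in Mutant and 29.3 CPM in Control cells (1.20), and Hist2h4 had 35.2 CPM and 14.7 CPM (1.26). Both values compare mostly cluster 9 of the Mutant with cluster 2 of the Control library. Summed over all 13 H4 genes the level in cells with division UMIs was 183 CPM in Mutant and 136 CPM in Control cells (log2 ratio 0.43), and over the 12 H3 genes 136 CPM in Mutant and 103 CPM in Control cells (0.40).

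**Figure D5:**
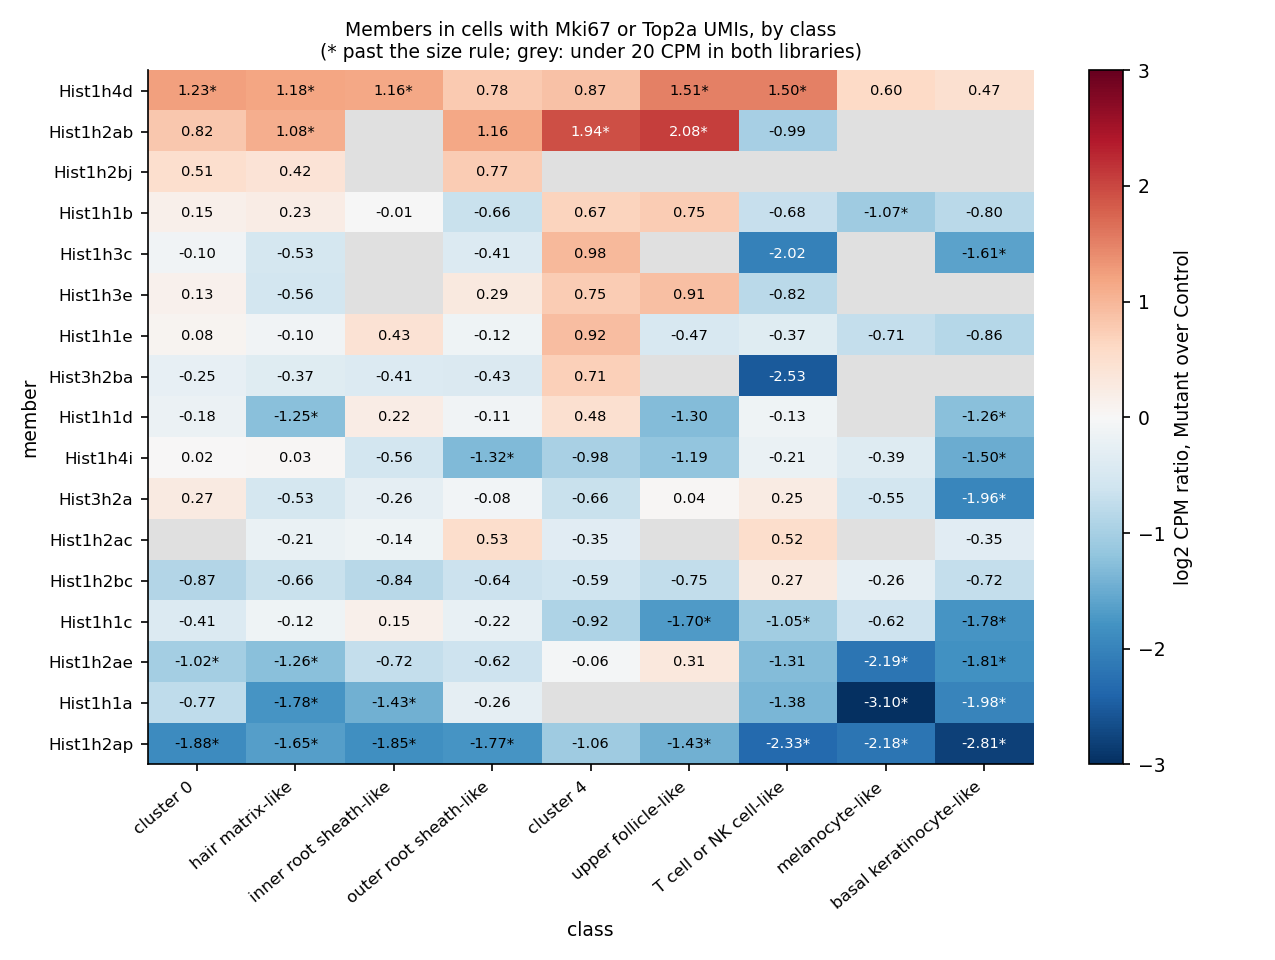
Log2 CPM ratio of Mutant over Control in cells with Mki67 or Top2a UMIs, for the 17 genes at 20 CPM or more (rows) in 9 classes (columns); an asterisk marks ratios past the size rule and grey marks genes under 20 CPM in both. The row of Hist1h4d is positive throughout, the row of Hist1h2ap is negative throughout, and the basal keratinocyte-like column holds 8 lower calls, more than any other column.

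By class, basal keratinocyte-like cells held more lower calls than any of the other 8 classes in cells with division UMIs. In those with division UMIs 8 of 13 histone cluster genes at 20 CPM or more were lower in Mutant cells, where 12.5% of all genes were, and in those without, 4 of 9, where 15% of all genes were. Of the 4, Hist1h1b had 8.65 CPM in Mutant and 20 CPM in Control cells (-1.21), and came short of 2-fold with TMM (-0.91) and DESeq2 factors (-0.83). Mki67 or Top2a UMIs were seen in 14.7% of Mutant and 31.4% of Control basal keratinocyte-like cells, and the median depth of the cells with them was 5789 UMIs in Mutant and 8416 UMIs in Control. The part of these differences in the ratios was not tested. Inside cluster 7 alone, with 46 Mutant and 702 Control cells without division UMIs, the 12 genes seen outside dividing cells had 223 CPM in Mutant and 554 CPM in Control cells (-1.32, -1.75 to -0.91). In melanocyte-like cells with division UMIs 4 of 10 were lower, where 3.41% of all genes were, namely Hist1h1a, Hist1h1b, Hist1h2ae and Hist1h2ap. This class lay mostly in different clusters in the libraries. In hair matrix-like cells with division UMIs 4 of 18 were lower, where 1.96% of all genes were, and 2 were higher, where 2.76% were. In cluster 0 with division UMIs 2 of 22 were lower, where 1.97% were, and 2 were higher, where 2.56% were. Upper follicle keratinocyte-like cells without division UMIs had 3 of 8 lower, Hist1h1c, Hist1h4i and Hist3h2a, where 7.77% of all genes were, and none higher, where 3.16% were.

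In T or NK cell-like cells with division UMIs 1 of 20 histone cluster genes was higher (4.28% of all genes) and 2 were lower (3.11%), and in those without, 2 of 12 were higher (4.09%) and 2 lower (7.87%). The lower pair was Hist1h1c and Hist1h2ap in both states. In upper follicle keratinocyte-like cells with division UMIs 2 of 12 were higher (5.55%) and 2 lower (7.78%), and in inner root sheath-like cells 1 of 13 was higher (6.23%) and 2 lower (2.29%). Hist1h4d was among the higher and Hist1h2ap among the lower genes of both classes. In outer root sheath-like cells none of 19 was higher (1.19%) and 2 were lower (1.19%) with division UMIs, while 1 of 9 was higher (1.19%) and none lower (1.30%) without. In cluster 4, 1 of 15 was higher (2.73%) and none lower (1.75%) with division UMIs, and none of 7 was higher (1.14%) and 1 lower (1.95%) without. The genes were Hist1h2ab, at 34.2 CPM in Mutant and 8.89 CPM in Control cells with division UMIs, and Hist1h4i, at 26 CPM in Mutant and 75.6 CPM in Control cells without.

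In the remaining cells without division UMIs, cluster 0 had none of 11 higher (3.10%) and 2 lower (4.30%), Hist1h2ap and Hist1h2bc. Dermal papilla-like cells, which signal to the hair matrix, had none of 7 higher (7.20%) and 1 lower (7.54%), Hist1h2ac, which fell to 7.45 CPM in Mutant, against 32.8 CPM in Control cells. Fibroblast-like cells had none of 3 higher (2.85%) and 2 lower (4.99%), Hist1h1c and Hist3h2a, the second at a log2 ratio of -1.21 that came to -0.99 with TMM and -0.96 with DESeq2 factors. No histone cluster gene passed the size rule in either direction without division UMIs in cluster 18 (0.601% of all genes higher, 1.51% lower), hair matrix-like (1.14% and 2.22%), inner root sheath-like (1.88% and 1.49%) or melanocyte-like cells (1.26% and 3.22%). None was higher in basal keratinocyte-like cells with (5.18%) or without (5.10%) division UMIs, or in melanocyte-like cells with them (1.62%).

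Genes that act with the histone cluster genes were read from lists, by counts and medians. Of 15 genes of histone mRNA processing and transcription at 20 CPM or more in cells with division UMIs, none passed the size rule (median log2 ratio 0.26). Slbp, the stem-loop binding protein, had 118 CPM in Mutant and 113 CPM in Control cells with division UMIs, and 64.5 CPM in Mutant and 91.9 CPM in Control cells without (log2 ratio -0.51). Of 18 histone chaperones none passed (median 0.12), with Nasp, which carries H3 and H4, at 243 CPM in Mutant and 241 CPM in Control cells. Of 9 replication-independent histone variants, whose mRNAs are polyadenylated, none passed in cells with division UMIs (median -0.10) or without (median -0.49). H2afz had 1494 CPM in Mutant and 1783 CPM in Control cells with, and 630 CPM in Mutant and 882 CPM in Control cells without. H3f3b had 4860 CPM in Mutant and 5297 CPM in Control cells with, and 2812 CPM in Mutant and 4101 CPM in Control cells without. H2afz was thus higher in cells with division UMIs in both libraries, by log2 ratios of 1.24 in the Mutant and 1.01 in the Control library, while H3f3a, at 1844 CPM with and 1932 CPM without in the Mutant library, was level. Of 20 S phase genes none passed between the libraries in cells with division UMIs (median 0.20), nor did any of 19 G2 and M phase genes (median 0.01) or 7 genes of cell cycle exit (median -0.01). Of all genes, 2.14% were higher and 3.17% lower in cells with division UMIs, so nothing is read from none passing in lists this short. In cells without division UMIs the median was -0.92 over 5 S phase genes, of which 1 passed as lower. It was -0.77 over 3 G2 and M phase genes, of which 1 passed as lower and 1 as higher. Of all genes 4.03% were lower and 2.94% higher there. The genes were Tipin and Cks2, lower, and Cenpe, higher, with 13, 66.0 and 20.5 CPM in Mutant, against 31.9, 133 and 10.2 CPM in Control cells without division UMIs. TMM and DESeq2 factors raise every ratio of those cells by 0.16 and 0.18, which takes Cks2 short of 2-fold.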

How the data were processed

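Single-cell libraries of mouse anagen epidermis were analysed from the deposited gene-by-barcode matrices of UMI counts, which per the file headers the authors made with Cell Ranger 3.0.2; the submitters' processing notes also name Seurat 3.0.0 and 3.1.0 and the builds GRCm38 and mm10. Each group was deposited as 1 matrix with no map to its listed samples, so each had 1 sample and no test was possible. The matrices held 97817173 UMIs in 13411 Mutant barcodes and 140880809 UMIs in 16973 Control barcodes.

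Barcodes under 500 genes or over 15% mitochondrial UMIs were removed. Scrublet (scanpy 1.11.5) marked 453 Mutant (3.95%) and 366 Control (2.59%) barcodes as doublets, which were removed. Cells were clustered on 2000 variable genes, 30 principal components and 15 neighbours (leidenalg 0.10.2, resolution 1), leaving out the histone cluster, cell cycle list, histone variant, Mki67, Top2a and X- and Y-linked genes. A cluster was named from 26 marker sets where its best score was at least 0.7, led the next by at least 0.3 and rested on at least 3 detected markers; a difference from the study's own names may come from this. UMIs were summed over cells and divided by their total. Ratios carry exact conditional 95% intervals (scipy 1.17.1). The code was tested on simulated counts. CPM counts captured 3' ends and is compared within a gene. Genes named were those at 50 CPM or more in either state, those seen outside dividing cells, up to 5 per comparison and direction past the size rule, and up to 4 per list by level; any other was named after its values were seen. TMM (edgeR 4.0.16) and DESeq2 1.42.0 gave alternative factors only. The histone cluster genes and the lists were chosen with earlier results of these data known.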

Additional observations from a re-analysis of the deposited data

How the results depend on the processing

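No paired analysis was possible because each group was 1 pooled matrix. No alternative run reversed a called ratio; of the values recomputed for single genes and classes, 395 moved by less than their counting interval and 148 by more, and of the summed levels and counts over all cells, 69 stayed within their interval or within 1.5 times and 41 did not. The alternatives that weighted classes alike, left out barcodes found in both libraries, and grouped cluster 0 by cycle lists were chosen after seeing the data. In cells with division UMIs, the log2 ratio of all 63 genes (-0.01) came to -0.06 thinned, 0.03 with at least 2 division UMIs, 0.02 with TMM, 0.05 with DESeq2 and -0.19 with classes weighted alike. That of the concentrated genes (0.41) came to 0.37 with doublets kept, 0.14 thinned, 0.35 with at least 2 division UMIs, 0.44 with TMM, 0.47 with DESeq2 and -0.19 with classes weighted alike, where its direction turned. That of the genes seen outside dividing cells (-0.68) came to -0.65, -0.62 and -0.38 with TMM, DESeq2 and classes weighted alike. In cells without division UMIs, all 63 genes (-0.63) came to -0.72 with strict cell filters, -0.60 thinned, -0.90 with the wider division gene list, -0.47 with TMM, -0.45 with DESeq2 and -0.19 with classes weighted alike. The concentrated genes (-0.36) came to -0.25, -0.86, -0.20, -0.18 and -0.50 when thinned, with the wider list, TMM, DESeq2 and classes weighted alike. The genes seen outside (-0.68) came to -0.80 with strict filters, -0.72 thinned, -0.97 with the wider list, -0.52 with TMM, -0.50 with DESeq2 and -0.17 with classes weighted alike. The count of genes higher in Mutant cells with division UMIs (3) was 11 at a level minimum of 5 CPM, 0 at 100 CPM and 1 with classes weighted alike, and the count lower (1) was 0 at 100 CPM. The count lower in cells without them (0) was 1 with strict filters, 1 with doublets kept, 3 thinned, 3 with the wider list, 2 at 5 CPM and 1 with classes weighted alike. The share of all genes passing under these settings is not given here, so nothing is read from these counts. No gene moved between the group seen outside dividing cells and the concentrated group under any of the 6 settings that changed cells or the division rule, and 8 to 12 of the 12 and 19 to 25 of the 25 kept their group. Beyond these numbers, the cause of each shift was not tested.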
